A study of Homo sapiens with 6 samples.

Results

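Intestinal and hepatic secretory genes are a set of 45 genes that are known as markers of gut epithelium and liver. They were examined in 6 RNA-seq libraries of MDA-MB-231, a human breast cancer cell line that the study classes as mesenchymal/basal-like. In 3 libraries the cells expressed a control shRNA, and in 3 they expressed Smyca shRNA #1, a hairpin against the lncRNA Smyca. All 6 libraries share the cell line and an shRNA, and 1 hairpin stands for the knockdown, so that loss of Smyca and other effects of that hairpin cannot be told apart. Each of the 45 genes was matched by symbol to 1 of the 58302 Ensembl genes counted in the data. The list was chosen by known markers of gut and liver with the levels of these same libraries and their control-to-knockdown differences in view. Levels and differences are therefore a description, and the p-values given here are not independent support for any of them.

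The epithelium of the gut holds absorptive enterocytes, which carry digestive enzymes and adhesion proteins on a brush border, and goblet cells, which secrete mucins together with trefoil peptides and folding helpers such as AGR2. Hepatocytes secrete most plasma proteins, among them albumin, apolipoproteins, fibrinogen and protease inhibitors. Transcription factors of the HNF1, HNF4, FOXA and CDX families are known to drive such genes in gut and liver.

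Promoter sequences are given for 4 of the genes. AGR2 and ELF3 had the most counts among the genes that were higher in each control library than in each knockdown library, TSPAN8 was the single gene with the reverse order, and AGR3 is the near-silent neighbour of AGR2. Each window was taken from RefSeq (GRCh38.p14) and runs from 250 bases before the annotated start of transcription to 50 bases after it, written 5′ to 3′ on the strand of the gene. Capitals mark a TATA box (TATAAA) in AGR3 and ELF3 and a FOXA core (TGTTTAC) in TSPAN8. The windows are chr7:16804950-16805249 on the minus strand for AGR2, chr7:16881934-16882233 on the minus strand for AGR3, chr1:202010337-202010636 on the plus strand for ELF3 and chr12:71157950-71158249 on the minus strand for TSPAN8. The GENCODE span of AGR2 (ENSG00000106541) runs from 16791811 to 16833433, that of ELF3 (ENSG00000163435) from 202007945 to 202017183 and that of TSPAN8 (ENSG00000127324) from 71125085 to 71441898, so that these 3 windows lie inside the annotated genes, at an inner start. That of AGR3 (ENSG00000173467) runs from 16859412 to 16881987 and ends inside its window.
AGR2: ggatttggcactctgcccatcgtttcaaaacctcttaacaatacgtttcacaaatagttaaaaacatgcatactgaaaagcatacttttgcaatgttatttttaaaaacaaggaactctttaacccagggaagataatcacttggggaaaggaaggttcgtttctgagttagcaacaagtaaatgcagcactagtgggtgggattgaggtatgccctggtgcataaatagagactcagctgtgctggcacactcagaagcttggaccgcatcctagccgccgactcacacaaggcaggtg
AGR3: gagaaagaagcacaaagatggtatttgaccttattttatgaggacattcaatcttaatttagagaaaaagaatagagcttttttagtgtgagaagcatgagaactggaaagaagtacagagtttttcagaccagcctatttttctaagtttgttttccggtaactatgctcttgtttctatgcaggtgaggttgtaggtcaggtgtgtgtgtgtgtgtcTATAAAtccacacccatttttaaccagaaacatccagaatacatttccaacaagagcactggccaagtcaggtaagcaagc
ELF3: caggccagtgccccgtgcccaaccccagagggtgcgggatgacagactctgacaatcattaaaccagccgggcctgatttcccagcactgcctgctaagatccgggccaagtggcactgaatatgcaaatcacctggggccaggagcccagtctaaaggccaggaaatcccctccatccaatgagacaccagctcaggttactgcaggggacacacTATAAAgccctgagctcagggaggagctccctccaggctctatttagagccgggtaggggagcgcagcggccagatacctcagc
TSPAN8: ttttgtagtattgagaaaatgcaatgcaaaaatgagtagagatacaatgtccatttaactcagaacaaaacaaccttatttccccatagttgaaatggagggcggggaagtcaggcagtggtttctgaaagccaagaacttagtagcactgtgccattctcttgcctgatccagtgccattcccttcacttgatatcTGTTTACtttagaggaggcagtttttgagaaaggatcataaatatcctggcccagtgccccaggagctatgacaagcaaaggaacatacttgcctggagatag
The TATA box lies 31 bases before the start in AGR3 and 34 bases before it in ELF3, and the FOXA core lies 53 bases before the start in TSPAN8. None of the 7 motifs searched for was found in the window of AGR2.

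RefSeq windows were matched for 31 of the 45 genes. Those of CDH17, LYZ, APOA1, MUC5AC, APOC3, TFF3, TTR, PHGR1, EPCAM, TFF1, APOB, MUC5B, TFF2 and MEP1A were missing. Motifs were searched on both strands, and no motif's letters contain those of another. GTTAAT, a half-site of HNF1, occurred in 9 of 31 windows (29%), against 6.88% of all 35116 RefSeq windows. TTTATGG, a CDX core, occurred in 5 (16.1%) against 2.54%, and the TATA box in 8 (25.8%) against 11.5%. The AP-1 site TGANTCA occurred in 6 (19.4%) against 7.71%, and the HNF4 half-site CAAAGT in 4 (12.9%) against 11.9%. The FOXA core occurred in 1 (3.23%) against 3.42%, and the ETS core CCGGAAG in 0 against 10.3%. Of the 31 windows, 25 belonged to genes below 10 FPKM in both groups and 6 to the other genes. The HNF1 half-site occurred in 8 of these 25 and in 1 of the 6, that of MUC13. The CDX core occurred in 5 of the 25 and in 0 of the 6. Whether such shares differ between the 25 and the 6 was not tested. These are counts of letters in a short window and say nothing of binding.

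Total counts lay between 14999307 and 16501085 per library, so that a gene with 0 counts may have had up to 0.182 to 0.200 CPM (a count scaled to the library total), the limit set by 3 counts. FPKM, a count scaled to gene length and library total, was recomputed from the counts and serves to compare levels between genes. Normalized CPM, a count scaled by the TMM library size, serves to compare libraries. Smyca (MIR23AHG), the target of the hairpin, measured 25.0, 19.5 and 22.0 normalized CPM in control repeats 1 to 3, against 10.5, 6.97 and 5.61 with the knockdown, in the direction of the labels. The log2 fold change of control over knockdown was 1.53 ± 0.26 (SE), with an adjusted p of 0.111 in edgeR's quasi-likelihood test. Control repeat 3 stood apart from its group. Over the 15075 genes tested, its log2 CPM correlated with those of control repeats 1 and 2 at 0.957 and 0.966 and with the knockdown libraries at 0.973 to 0.974, whereas control repeats 1 and 2 correlated at 0.991 with each other. For the intestinal and hepatic secretory genes, the counts of calls and of groups that did not overlap are given with and without this library. So is the adjusted p of those called without it. For the other marker lists, these counts are given over all libraries only.

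A minority of the 45 genes was expressed, and these belonged mainly to the epithelial surface, mucin and goblet cell groups. In all 6 libraries 11 genes reached 1 FPKM, namely EPCAM, CEACAM1, MUC1, MUC13, AGR2, TFF1, TFF2, TFF3, ELF3, APOE and SERPINA1, against 12105 of all 58302 genes. At the other end, 6 genes (MEP1A, APOB, APOC3, TTR, AFP and FGB) had 0 counts in every library, and 20 genes, these 6 included, never exceeded 5 counts. By mean level in control cells, EPCAM (245 ± 54.8 FPKM, SD, n = 3), TFF3 (200 ± 35.3) and AGR2 (105 ± 10.5) stood at the top. They were followed by ELF3 (28.0 ± 14.7), SERPINA1 (27.4 ± 7.33), MUC13 (26.6 ± 15.8) and APOE (22.6 ± 6.42), which do not differ from each other beyond their SD. TFF2 (11.1 ± 3.62), CEACAM1 (8.70 ± 0.854), MUC1 (6.77 ± 0.772) and TFF1 (4.13 ± 1.17) were lower. EPCAM, TFF3 and AGR2 together held 69.6% to 81.8% of the counts of the 45 genes in each library, and the 45 genes held 0.0409% to 0.0692% of all counts. Among the genes at 1 FPKM or more in all libraries, the mean level of EPCAM lay at percentile 95.7, that of TFF3 at 94.2 and that of AGR2 at 83.2, while that of TFF1 lay at 10.4.

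**Figure D1:**
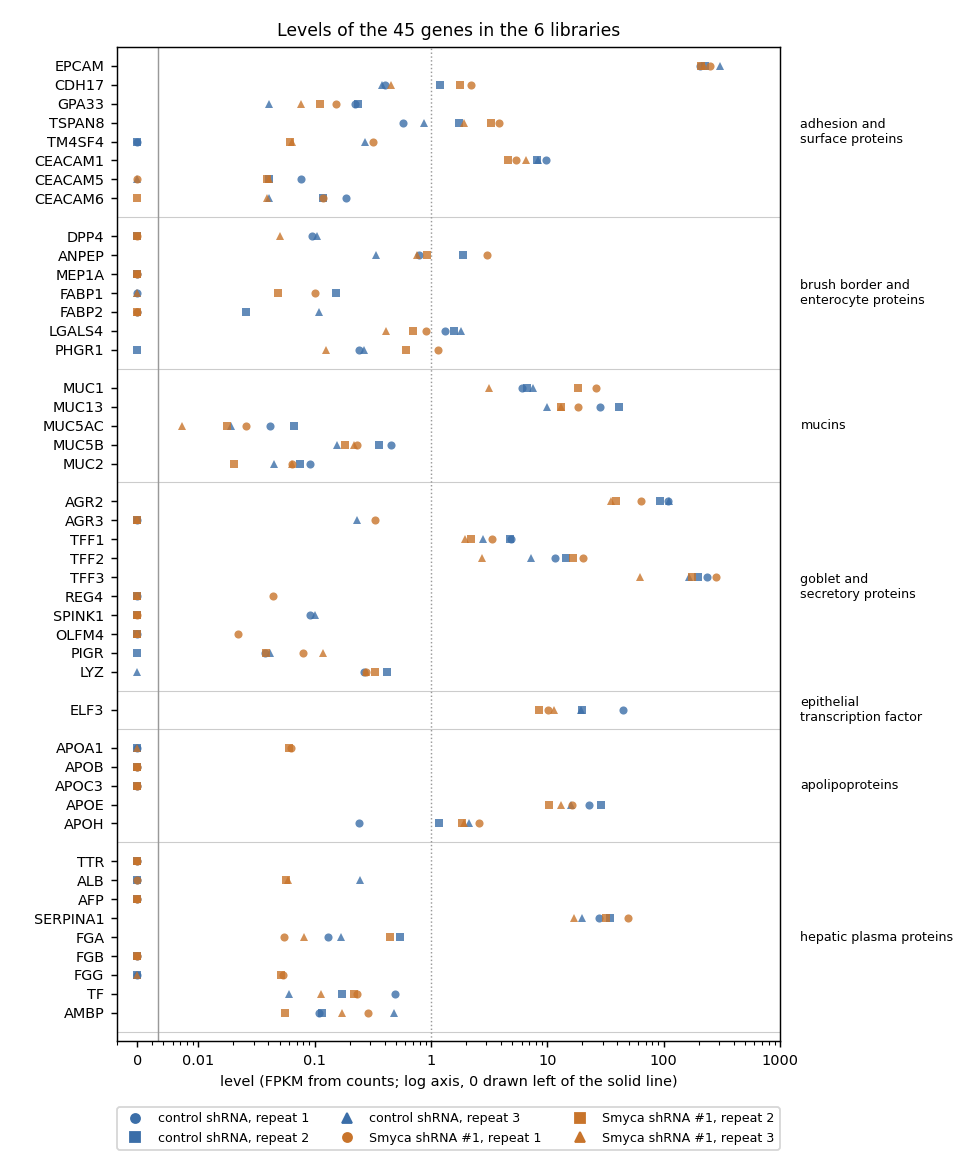
Level of each of the 45 genes in the 6 libraries, grouped by role, in FPKM on a log axis with 0 drawn to the left of the solid line and 1 FPKM marked by the dotted line. Points are libraries (blue, control shRNA; orange, Smyca shRNA #1), and points at the same value lie on top of each other. EPCAM, TFF3 and AGR2 lie furthest to the right, and 6 genes have all points at 0.

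The label of a secretory gut and liver identity was met only in part. Of 9 hepatic plasma proteins 1 was detected, SERPINA1, and of 5 apolipoproteins 1, APOE, which many cell types outside the liver make. ALB, which codes for albumin, had 4 counts in control repeat 3 and at most 1 in any other library. The gel-forming mucin MUC2, the defining product of intestinal goblet cells, had 2 to 9 counts per library. None of 10 further goblet cell genes reached 1 FPKM in all libraries, and CLCA1, ZG16, ITLN1 and ATOH1 had 0 counts. The goblet cell factor SPDEF reached it in 5 libraries, at 5.61, 5.33 and 1.67 FPKM in the control and 4.19, 2.92 and 0.505 in the knockdown repeats, and CREB3L1, a regulator of secretion, reached it in 4, at 0.615 to 3.06 FPKM. Of 36 further hepatocyte genes 4 reached that level. These were F10 (mean 14.3 FPKM in control and 9.22 in knockdown cells), ASGR1 (5.48 and 2.25), APOM (2.70 and 2.09) and APOC1 (2.30 and 1.93). CYP2E1 was at 0.904 to 3.03 FPKM, while CYP3A4 had 0 counts and CPS1 at most 2.

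Other genes of the gut were high. VIL1, which codes for the brush border actin-binding protein villin, was at 138 ± 30.4 FPKM in control and 202 ± 17.8 in Smyca knockdown cells. USH1C, a protein of the links between microvilli, was at 111 ± 52.9 and 87.0 ± 27.8 FPKM. These were among 5 of 20 further enterocyte genes at 1 FPKM or more in all libraries, whereas sucrase-isomaltase (SI) and APOA4 had 0 counts. All 8 intestinal stem cell genes reached that level. The Wnt target ASCL2 was at 64.9 ± 32.1 and 131 ± 30.3 FPKM, AXIN2 at 67.3 ± 5.74 and 74.1 ± 10.3, and CDCA7 at 44.4 ± 8.35 and 50.9 ± 6.37. So did 10 of 19 gut and liver transcription factors. HNF4A was at 55.9 ± 26.1 and 72.8 ± 0.345 FPKM, FOXA2 at 56.7 ± 2.69 and 53.4 ± 6.48, and FOXA3 at 27.2 to 66.5 and 32.9 to 44.6. KLF5 was at 193 ± 97.1 and 137 ± 18.5 FPKM and SOX9 at 62.1 ± 4.22 and 55.9 ± 9.57. HNF4A had its lowest value, 26.6 FPKM, in control repeat 3, and was at 64.5 to 76.6 in the other 5 libraries.

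The labelled cell line was checked in the same way. Of 18 genes known as markers of MDA-MB-231 or of mesenchymal breast cancer cells 15 were at 1 FPKM or more in all libraries. LGALS1 (galectin-1) was at 1268 ± 505 FPKM in control and 560 ± 112 in knockdown cells, and MSN (moesin) at 483 ± 178 and 448 ± 90.9. VIM (vimentin) was at 161 ± 53.8 and 72.4 ± 19.4 FPKM, and ANXA1, PLAUR, TGFBI and CAV2 were each above 50 FPKM in 1 group at least. Other markers on this list were lower. Over all libraries ZEB1 was at 2.60 to 5.28 FPKM, FN1 at 1.53 to 11.0, EGFR at 3.53 to 10.1 and AXL at 6.84 to 19.7. The markers that missed 1 FPKM in some library were IL6, CDH11 and NNMT. IL6 had 0 counts and the mesenchymal cadherin CDH11 at most 2. NNMT was at 0.645 FPKM in control repeat 3 and 0.383 in knockdown repeat 3. Of 9 luminal breast markers 0 reached 1 FPKM in all libraries, with 0 counts for PGR and at most 3 for ESR1. GATA3, on the same list, was at 1.68, 1.45 and 2.08 FPKM in the control and 2.05, 2.11 and 0.681 in the knockdown repeats. Of 4 basal markers KRT17 reached that level. Of 12 blood, stromal and endothelial markers 1 was detected (VWF, 1.33 to 3.28 FPKM), and PTPRC had 0 counts. The summed level of the MDA-MB-231 markers was 1415 to 3049 FPKM in the control and 1134 to 1586 in the knockdown libraries, that of the gut and liver transcription factors 315 to 593 and 415 to 472, and that of the stem cell genes 228 to 290 and 316 to 401. EPCAM, VIL1, HNF4A and FOXA2, which are known from epithelium, gut and liver and not from mesenchymal breast cells, were thus present beside VIM and MSN, which are. No levels of the line from elsewhere were compared, and whether the libraries came from the labelled line alone was not tested. In such bulk samples, fewer cells of a type and less RNA per cell cannot be told apart.

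**Figure D2:**
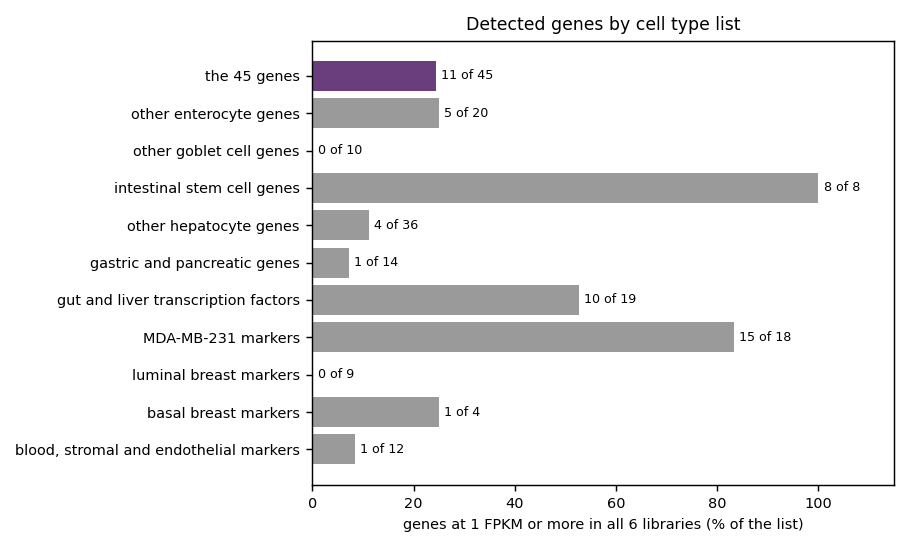
Share of each marker list at 1 FPKM or more in all 6 libraries, in percent of the list, with counts beside the bars. The 45 genes (11 of 45) stand between the stem cell genes (8 of 8) and the goblet cell and luminal breast lists (both 0).

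Between control and Smyca knockdown cells, edgeR's quasi-likelihood test called none of the 45 genes and DESeq2 called 3 at the study's criteria, which ask for an adjusted p under 0.05 and a control/knockdown ratio that reaches 1.5 upwards or 0.66 downwards. The counts sufficed for a test of 17 genes, while the other 28, with at most 20 counts in any library, were not tested. Over all genes, edgeR called 4 of 15075 (0.0265%), so that few calls would be made of any list. At an unadjusted p under 0.05 in the same edgeR quasi-likelihood test stood 6 of the 17 genes (TSPAN8, CEACAM1, LGALS4, AGR2, ELF3 and APOE), beside 19.2% of all genes. Of the 17 genes, 10 had a higher and 7 a lower estimate in control cells, and their median log2 fold change was 0.16, against 0.036 over all genes. The 3 control values all lay above the 3 knockdown values in 4 genes, CEACAM1, LGALS4, AGR2 and ELF3, beside 12.4% of all genes tested. The reverse held for 1 gene, TSPAN8, beside 12.5%. The smallest p that an exact permutation of 3 against 3 libraries allows is 0.1, so single values were not tested in that way.

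**Figure D3:**
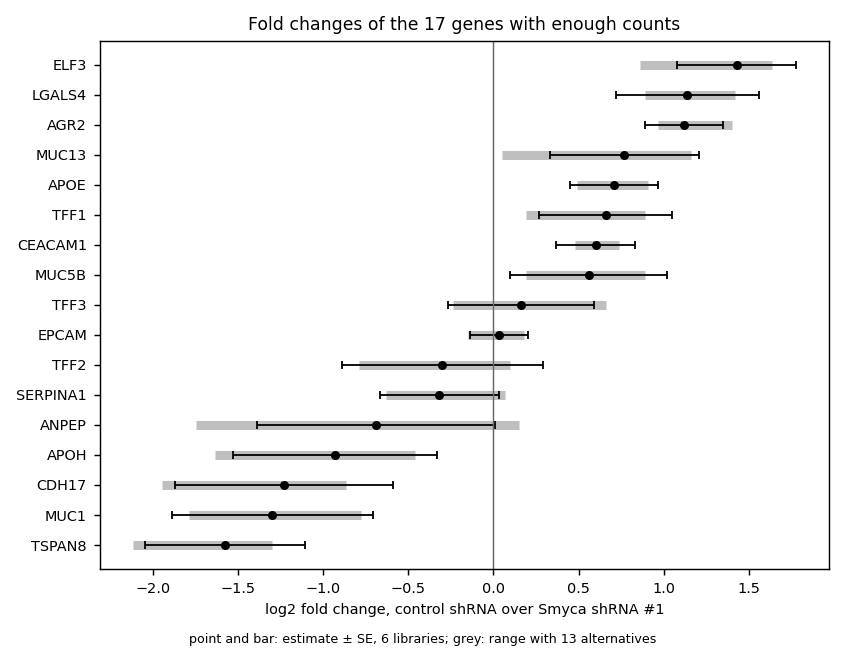
Log2 fold change of control shRNA over Smyca shRNA #1 for the 17 genes with enough counts, ordered by size. Points and bars are the edgeR estimate ± SE over 6 libraries. Grey bands are the range over that estimate and up to 13 alternatives, fewer for genes that a stricter filter left out. ELF3 (1.43) and TSPAN8 (-1.58) lie at the ends, and the bands of EPCAM, ANPEP, TFF2, TFF3 and SERPINA1 cross 0.

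Control repeat 3 weighed on these counts. Without it, 4 of 19 genes tested were called (MUC13, AGR2, ELF3 and APOE), beside 10.5% of all genes. The groups of 11 of the 17 genes then did not overlap, beside 48.9% of all genes tested. Groups of 2 and 3 values overlap less often by number alone, and what else raised these shares was not tested. Without Smyca shRNA #1 repeat 3, 9 of the 17 did not overlap, beside 39.3%. AGR2 and ELF3 were also called by DESeq2 over all 6 libraries, together with TSPAN8 (5.89% of all genes), and with no filter on low counts, together with MUC1 (3.01% of all genes).

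The 8 adhesion and surface proteins ranged from the highest level of the list to near 0. EPCAM, the epithelial cell adhesion molecule, was at 236, 245 and 336 normalized CPM in the control and 285, 249 and 265 in the knockdown repeats. The knockdown values lay within the range of the control values, and the highest library was 1.42-fold above the lowest. Its log2 fold change was 0.03 ± 0.17, and was -0.15 without control repeat 3, the library with the highest value.

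CEACAM1, a cell adhesion molecule of the carcinoembryonic antigen family, was at 13.2 ± 1.78 normalized CPM in control and 8.72 ± 1.61 in knockdown cells, with no overlap and a log2 fold change of 0.60 ± 0.23. Its relatives CEACAM5 and CEACAM6, neighbours on chromosome 19 with 20543 bases between them, had at most 2 and 5 counts. Reads of the CEACAM genes may have been split between near-identical stretches, which was not tested.

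TSPAN8, a tetraspanin of gut epithelium and its tumours, was at 0.494, 1.42 and 0.704 normalized CPM in the control and 3.24, 2.91 and 1.72 in the knockdown repeats. All 3 knockdown values exceeded all control values, with 8 to 23 counts in the control and 26 to 51 in the knockdown libraries. Control over knockdown gave a log2 fold change of -1.58 ± 0.47, with an adjusted p of 0.144 in edgeR's quasi-likelihood test and of 0.0468 in DESeq2. Without control repeat 3 it was -1.46, with an adjusted p of 0.0992 in edgeR.

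CDH17, the liver-intestine cadherin, had 11 to 36 counts in the control and 14 to 67 in the knockdown libraries, and its groups overlapped (log2 fold change -1.23 ± 0.64, from -1.95 to -0.87 over the alternatives). GPA33, an intestinal surface antigen, and TM4SF4, a 4-span membrane protein of gut and liver, had at most 6 and 5 counts.

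Among 7 brush border and enterocyte proteins none reached 1 FPKM in every library. LGALS4 (galectin-4), a lectin of intestinal epithelium, was at 1.05, 1.17 and 1.34 normalized CPM in the control and 0.698, 0.570 and 0.330 in the knockdown repeats. All control values exceeded the knockdown values, but these rest on 17 to 21 and 5 to 11 counts. This gave a log2 fold change of 1.14 ± 0.42, with an adjusted p of 0.200 in edgeR's quasi-likelihood test.

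ANPEP (aminopeptidase N), a brush border peptidase, had 5 to 29 counts in the control and 12 to 47 in the knockdown libraries, and its highest library was 9.32-fold above its lowest. DPP4, another brush border peptidase, and the fatty acid-binding proteins FABP1 and FABP2 had at most 2, 3 and 4 counts, and MEP1A, a subunit of the metalloprotease meprin, had 0. PHGR1, a small protein of gut epithelium, had at most 9.

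The membrane-bound mucins were above 1 FPKM in every library, and the gel-forming mucins were below it. MUC13, a membrane mucin of the gut, was at 27.6, 37.8 and 9.09 normalized CPM in the control and 17.7, 13.1 and 13.0 in the knockdown repeats. Control repeats 1 and 2 lay above all knockdown values, and control repeat 3 below them. The log2 fold change was 0.77 ± 0.44 (adjusted p = 0.368, edgeR's quasi-likelihood test), and was 1.16 without control repeat 3 (adjusted p = 0.0167, edgeR). With the whole reads recovered from the deposited FPKM of control repeat 2 in place of its counts, it was 0.05 (adjusted p = 0.955, edgeR), so that the size of the MUC13 difference depends on which column of that library is used.

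MUC1, a membrane mucin of many glandular epithelia, the breast included, was at 6.29, 6.46 and 7.43 normalized CPM in the control and 26.8, 19.6 and 3.37 in the knockdown repeats. Knockdown repeats 1 and 2 lay above and knockdown repeat 3 below all controls, which had a narrow range. Its log2 fold change was -1.30 ± 0.59, with an adjusted p of 0.275 in edgeR's quasi-likelihood test, and the highest library was 7.96-fold above the lowest.

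MUC2, MUC5AC and MUC5B, gel-forming mucins of gut, stomach and airway, lie in a row on chromosome 11. MUC5B had 11 to 35 counts in any library and a log2 fold change of 0.56 ± 0.46 (0.19 to 0.89 over the alternatives), and MUC5AC had 2 to 18 counts. With long transcripts, their levels stayed below 0.5 FPKM in every library.

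The 10 goblet cell and secretory proteins held both a gene whose groups were apart and genes that varied widely within a group. AGR2, a protein disulphide isomerase that mucin folding depends on, was at 82.7, 65.4 and 78.9 normalized CPM in the control and 47.2, 29.8 and 27.1 in the knockdown repeats. All controls, repeat 3 included, exceeded all knockdown values, with 1063 to 1341 against 410 to 743 counts. Control exceeded knockdown by 1.12 ± 0.23 on the log2 scale, with an adjusted p of 0.111 in edgeR's quasi-likelihood test, of 0.00186 in DESeq2 and of 0.0283 in edgeR without control repeat 3. AGR3, its paralog 25978 bases away on chromosome 7, had at most 3 counts.

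The trefoil factors, small secreted peptides that protect mucosal surfaces, lie together on the minus strand of chromosome 21 in the order TFF3, TFF2, TFF1, with 30947 and 11284 bases between them. TFF3 was at 144, 113 and 95.4 normalized CPM in the control and 168, 108 and 39.2 in the knockdown repeats. Both the highest and the lowest value were knockdown libraries, repeats 1 and 3. Its log2 fold change of 0.16 ± 0.43 turned to -0.24 at the lowest among the alternatives. TFF2 was at 7.59, 8.80 and 4.42 normalized CPM in the control and 12.8, 11.0 and 1.85 in the knockdown repeats. The same knockdown repeats held its extremes, and the log2 fold change was -0.30 ± 0.59. TFF1, which is also an oestrogen-responsive gene of luminal breast cells, was at 2.24 ± 0.669 and 1.41 ± 0.380 normalized CPM, with overlapping groups and a log2 fold change of 0.66 ± 0.39 (0.19 to 0.89 over the alternatives).

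The other 5 secretory genes were near 0. REG4, a lectin of intestinal secretory cells, and OLFM4, a glycoprotein of crypt cells, had 1 count in Smyca knockdown repeat 1 and 0 elsewhere. SPINK1, a trypsin inhibitor, had at most 1 count, PIGR, the receptor that carries IgA across epithelia, at most 3, and LYZ (lysozyme) at most 6.

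ELF3, an ETS family transcription factor of epithelia, was at 69.6, 28.7 and 28.3 normalized CPM in the control and 15.5, 13.5 and 18.1 in the knockdown repeats. All controls exceeded the knockdown values, and control repeat 1 lay well above the other two controls. The log2 fold change was 1.43 ± 0.35 and stayed between 0.86 and 1.64 over the alternatives. The adjusted p was 0.122 in edgeR's quasi-likelihood test, 0.00473 in DESeq2 and 0.0201 in edgeR without control repeat 3.

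**Figure D4:**
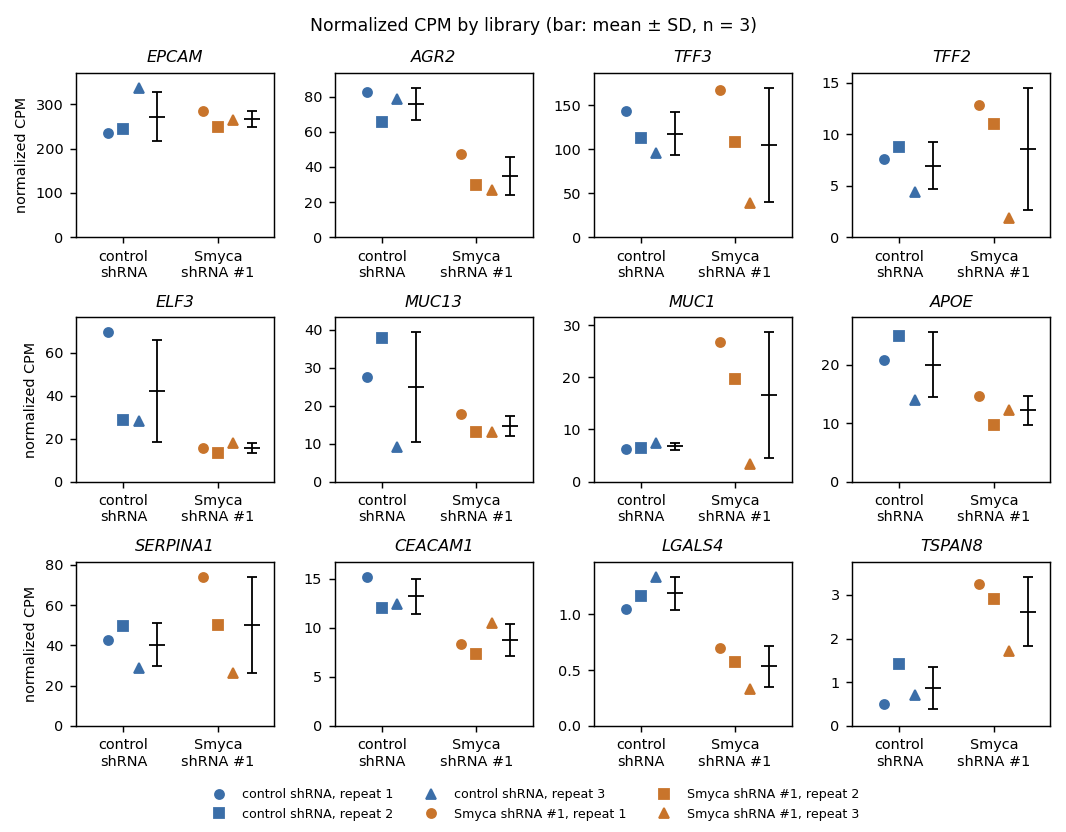
Normalized CPM of 12 genes in each library on linear axes from 0, with one panel per gene and the mean ± SD of 3 repeats beside the points (blue, control shRNA; orange, Smyca shRNA #1). The groups are apart for AGR2, ELF3, CEACAM1, LGALS4 and TSPAN8, while TFF3, TFF2, MUC1 and SERPINA1 have their highest and lowest values in Smyca shRNA #1 repeats 1 and 3.

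Among the apolipoproteins, APOE, which carries lipids in plasma and tissues, was at 20.9, 25.0 and 14.0 normalized CPM in the control and 14.6, 9.69 and 12.2 in the knockdown repeats. The groups overlapped through control repeat 3, which lay below knockdown repeat 1. The log2 fold change was 0.71 ± 0.26 (adjusted p = 0.197, edgeR's quasi-likelihood test), and was 0.91 without control repeat 3 (adjusted p = 0.0357, edgeR). APOH, a phospholipid-binding plasma protein, had 3 to 24 counts in the control and 23 to 31 in the knockdown libraries (log2 fold change -0.93 ± 0.60, from -1.64 to -0.46 over the alternatives). APOA1, the main protein of HDL, had at most 1 count, and APOB, which forms chylomicrons and VLDL, and APOC3, an inhibitor of lipolysis, had 0.

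Of the hepatic plasma proteins, SERPINA1 (α1-antitrypsin), an inhibitor of neutrophil elastase, was at 42.6, 49.5 and 28.6 normalized CPM in the control and 74.2, 50 and 26.3 in the knockdown repeats. The knockdown values spanned those of the controls on both sides. Its log2 fold change was -0.32 ± 0.35. The fibrinogen chains FGA, FGG and FGB had at most 20, 1 and 0 counts. TF (transferrin), an iron carrier, and AMBP, the precursor of α1-microglobulin and bikunin, had at most 9 and 8 counts. AFP, the fetal counterpart of albumin, and TTR, a thyroxine carrier, had 0.

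Differences between repeats of one group were as large as those between groups in part of the list. MUC1, TFF2, TFF3 and SERPINA1 were each highest in Smyca knockdown repeat 1 and lowest in Smyca knockdown repeat 3. The summed level of the goblet cell and secretory genes was 364, 310 and 288 FPKM in the control and 371, 233 and 103 in the knockdown repeats. By contrast AGR2, of the same group, was below all controls in each knockdown repeat. The estimates of 12 of the 17 genes kept their sign over up to 13 alternatives, fewer for genes that a stricter filter left out. Those of EPCAM, ANPEP, TFF2, TFF3 and SERPINA1 did not.

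The other gut and liver lists were read against the same background, in which 0.0265% of all genes were called. In edgeR's quasi-likelihood test 0 genes were called in the enterocyte, goblet, stem cell, hepatocyte, gastric and pancreatic, and transcription factor lists, while 7 of their 40 tested genes had an unadjusted p under 0.05, beside 19.2% of all genes. Of the 8 stem cell genes 7 had a lower estimate in control cells, with a median log2 fold change of -0.51, and 3 of them did not overlap between groups, beside 12.5% of all genes tested. Of the 16 MDA-MB-231 markers tested, 14 had a higher estimate in control cells, with a median of 0.91. In that direction 6 did not overlap, beside 12.4% of all genes tested, and in reverse 1 did not (TGFBI), beside 12.5%. CAV1, CAV2, EGFR and LGALS1 overlapped through control repeat 3 alone, without which 48.9% of all genes tested did not overlap in either direction. The 12 transcription factors tested were divided into 6 higher and 6 lower, with a median of -0.12.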

How the data were processed

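RNA-seq was performed on MDA-MB-231 cells expressing control shRNA or Smyca shRNA #1, with 3 repeats each. According to the study's methods and labels, rRNA was removed, strand-specific libraries were sequenced, and reads were mapped to GRCh38 with TopHat2 2.0.12 and counted with HTSeq. The annotation release and strand setting are not given in the sources used here. The authors deposited a raw read count per gene for 58302 Ensembl genes and, beside it, an FPKM value that divides the count by gene length and library total. In 5 libraries the deposited FPKM followed the counts. Control repeat 2 was the exception, where the FPKM was above 0 for 3357 genes whose count was 0. Its values corresponded to 16759253 whole reads (100% within 0.05 reads), which were used as an alternative only.

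FPKM was recomputed from the counts with the gene length behind the deposited values. Symbols came from GENCODE release 44, which matched 57532 identifiers and all 45 genes. Counts were tested in R 4.3.3 with edgeR 4.0.16 (TMM, filterByExpr, quasi-likelihood test of control over knockdown in all 6 libraries, 15075 genes, Benjamini-Hochberg adjustment over all of them). Calls needed an adjusted p under 0.05 and a ratio reaching 1.5 upwards or 0.66 downwards. The study's DESeq was not used here. The study calls the repeats biological, and the labels do not say that they were separate cultures, so p-values measure the spread between these libraries, a biological coefficient of variation of 25.2%. No pair of libraries agreed within sampling noise. Floors cover counting error only. Alternatives were DESeq2 1.42.0, other filters and size factors, a replicate block, and each repeat left out.

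The genes and the marker lists were chosen with earlier results of these data known. Each of the 45 genes is named, with values per library where the mean reached 10 FPKM in a group or the groups did not overlap at a log2 fold change beyond 1. Of the other lists, genes at 50 FPKM or more, called genes and genes that bear on the cell type are named. Promoters are the first window that RefSeq (GRCh38.p14) lists per symbol.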

Additional observations from a re-analysis of the deposited data

How the results depend on the processing

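Of the 45 genes, 0 were called in edgeR with TMM, RLE size factors, total counts, at least 10 counts in every sample, or, for control repeat 2, the whole reads recovered from its FPKM. DESeq2 called 3 and edgeR with no filter beyond 1 count called 3. Leaving out 1 repeat gave 0 to 4 calls, with 4 only without control repeat 3. The cause was not tested. The number of genes with no overlap was 5 with either scaling and 6 with those reads, and was 11 without control repeat 3 and 9 without Smyca shRNA #1 repeat 3 (9 to 11), 2 alternatives chosen after seeing the data and with fewer values to overlap. The number of detected genes was 5 at a threshold of 10 FPKM, 17 at 0.1 FPKM, and 11 to 12 with 1 repeat left out. For the 28 genes without a test, counts limit any comparison.

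Whether the repeat numbers pair the libraries cannot be told from 3 libraries per group, whose deviations from their mean are tied to each other. The deviations of same-numbered libraries correlated at 0.0607, 0.0842 and -0.0139, and those of other numbers at -0.18 to 0.0802. Control repeats 1 and 3 correlated best with another number (0.0736 and 0.0802), and control repeat 2 with its own (0.0842). With the replicate number as a block, 0 of the 45 genes were called, and 5 in place of 6 had an unadjusted p under 0.05.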
